A study of Mus musculus with 4 samples.

Results

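Goblet cell and mucin genes were examined in the small intestine (SI) of irradiated mice with and without p53. The set held 10 genes, Muc2, Tff3, Clca1, Fcgbp, Agr2, Zg16, Spdef, Muc13, Muc3 and Atoh1, chosen by name as genes of the goblet cell and of the mucus layer and matched to 10 of the 56748 rows of the count table. All samples were SI tissue collected at day 1 after total-body irradiation (TBI) with 12 Gy from a Cs-137 source. A group of 2 WT libraries (p53+/+) was compared with a group of 2 p53-/- libraries, and the mice of the study were 8 to 12 weeks old. The p53-/- mice were a constitutive p53-deficient line, in which the deletion is not limited to the epithelium. Unirradiated SI was not analysed here, and the comparison is therefore between genotypes after TBI and not between irradiated and unirradiated tissue.

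Goblet cells are secretory cells of the intestinal epithelium that release the gel covering its surface. The transcription factor ATOH1 commits progenitors to the secretory lineage, which Notch signalling restrains, and SPDEF drives goblet cell maturation. AGR2, a protein disulfide isomerase of the endoplasmic reticulum (ER), helps to process MUC2, the gel-forming mucin that is the scaffold of the mucus. FCGBP, the metalloprotease CLCA1, the bacteria-binding lectin ZG16 and the trefoil peptide TFF3 are secreted with it. MUC13 and MUC3 are transmembrane mucins that form the glycocalyx on the apical surface of epithelial cells.

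The libraries held 15005479 to 22173164 counts of reads per gene, and libraries are named here by the numbers of their columns, 7 and 8 for WT and 9 and 10 for p53-/-. The unit of level is CPM, in which the counts of each library are divided by its total and its TMM factor, and 3 counts corresponded to between 0.131 and 0.195 CPM. Trp53 itself was at 57.7 and 47.1 CPM in WT and at 19.8 and 22.5 CPM in p53-/-, a log2 fold change of -1.31 (adjusted p = 0.0602, edgeR). SI markers such as Sis, Alpi, Fabp2 and Defa24 were present in every library, at 252 CPM or more, while 2 other enterocyte markers were low in every library, Fabp1 at 2.41 to 5.45 CPM and Lct at 0.497 to 0.990 CPM. The stomach and Brunner gland markers Muc5ac, Tff1, Tff2, Gkn1 and Gkn2 and the colon markers Hoxa13 and Hoxd13 were at 0 counts in all libraries. Other colon markers were detected, the 9 listed summing to 278 and 251 CPM in WT and to 393 and 393 CPM in p53-/-. Of these, 4 were tested, 1 with a log2 fold change above 0 and 3 below. The 1 above was Car4, at 55.2 and 83.2 CPM in WT and at 289 and 312 CPM in p53-/- (log2 fold change 2.12, adjusted p = 0.0508, edgeR). Some libraries stood apart in their tissue content. Summed smooth muscle and stroma markers were at 3587 CPM in WT library 8 against 412 CPM in WT library 7, and summed B cell markers at 465 CPM in p53-/- library 10 against 22.6 CPM in library 9 and at most 1.82 CPM in WT. Library 10 also held 588 counts of Xist, the RNA of the inactive X chromosome of females, against at most 4 in the others. The study's methods describe sex-matched mice, so this library goes against that description, and the p53-/- libraries may differ in sex. Library 10 had 4.59% of its counts on the ribosomal RNA gene Rn18s-rs5, against 0.296 to 0.863% in the others. In bulk tissue, fewer cells of a type and less RNA per cell cannot be told apart.

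None of the 10 genes differed between genotypes past the threshold, set at an adjusted p under 0.05 by the quasi-likelihood method of edgeR (Benjamini-Hochberg over 16094 tested genes), where 0.491% of all tested genes did, 0.298% higher and 0.193% lower in p53-/-. All 10 had enough counts to be tested. At an unadjusted p under 0.05 there was 1 gene, Zg16, against a background of 18.0% in either direction and 7.92% lower. DESeq2 and edgeR's likelihood ratio test called 1 of the 10 each, Zg16 again, against backgrounds of 8.54% (5.05% higher and 3.50% lower) and 8.05%. The log2 fold changes, p53-/- over WT, ran from -0.96 for Zg16 to 0.56 for Muc13, with a median of -0.28, beside a median of -0.01 over all tested genes. For 6 of the 10 genes the genotypes did not overlap, against 50.7% of all tested genes. In detail, 5 were at lower CPM in both p53-/- libraries than in both WT libraries (Muc2, Tff3, Clca1, Zg16 and Muc3) and 1 at higher CPM (Muc13), where 24.4% and 26.4% of all tested genes did the same.

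**Figure D1:**
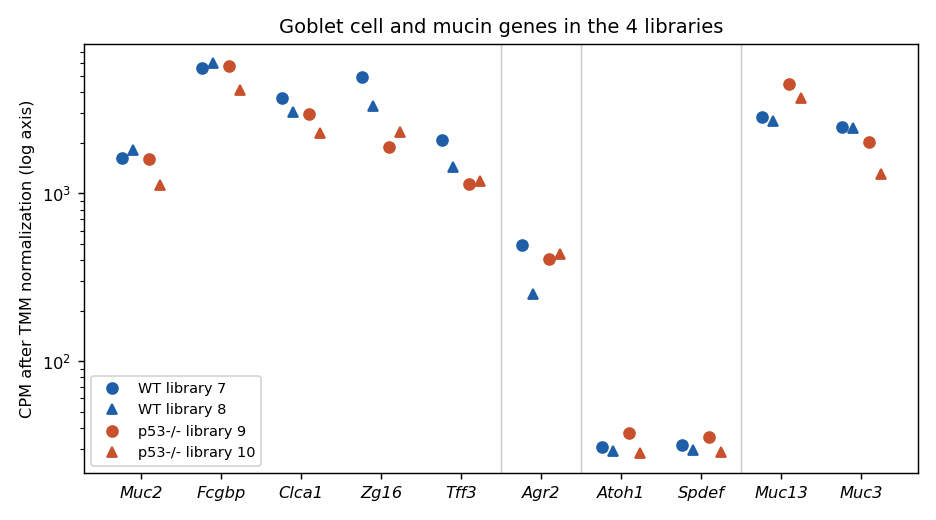
CPM after TMM normalization on a log axis for the 10 genes, with 1 point for each library (WT in blue, p53-/- in orange). The points of Zg16 separate by genotype, from 3299 to 4920 CPM in WT and from 1884 to 2336 CPM in p53-/-, and those of Atoh1 and Spdef lie together at 28.2 to 37.3 CPM.

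The secreted components of mucus were among the most abundant transcripts of the tissue in both genotypes. By mean CPM, Fcgbp ranked 9, Zg16 18, Clca1 20, Muc2 61 and Tff3 66 among the 16094 tested genes. All 5 had a log2 fold change below 0, with a median of -0.35, and none passed the threshold.

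Muc2 (ENSMUSG00000025515) was at 1617 and 1821 CPM in WT against 1595 and 1120 CPM in p53-/-. Both p53-/- libraries lay under both WT libraries, but library 9 was only just under library 7, and the p53-/- libraries differed from each other by more than the genotypes did. The log2 fold change was -0.34 (standard error, SE, 0.299, 95% interval -1.09 to 0.41, adjusted p = 0.625, edgeR), and it was -0.62 without library 9 and -0.06 without library 10.

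Fcgbp (ENSMUSG00000047730), the Fc gamma binding protein that is linked to MUC2 in the gel, was at 5599 and 5946 CPM in WT and at 5749 and 4144 CPM in p53-/-. Its genotypes overlapped, since library 9 lay between the WT libraries. The log2 fold change was -0.22 (95% interval -1.15 to 0.70, adjusted p = 0.813, edgeR), and it was 0.05 without library 10. Clca1 (ENSMUSG00000028255) was at 3688 and 3040 CPM in WT and at 2961 and 2301 CPM in p53-/-. The log2 fold change of Clca1 was -0.35 (95% interval -1.17 to 0.46, adjusted p = 0.641, edgeR), with library 9 close under library 8. It was -0.55 without library 9 and -0.13 without library 10.

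The sequences upstream of Muc2 and Fcgbp are shown because they are the scaffold of the gel and its partner, and because both hold CAGCTG, an E-box of the kind ATOH1 binds. They are the 250 bases before the transcription start in RefSeq, build GRCm38.p6, at chr7:141690090-141690339 for Muc2 and chr7:28070986-28071235 for Fcgbp, both on the plus strand and printed 5′ to 3′, with the motif in capitals.
Muc2: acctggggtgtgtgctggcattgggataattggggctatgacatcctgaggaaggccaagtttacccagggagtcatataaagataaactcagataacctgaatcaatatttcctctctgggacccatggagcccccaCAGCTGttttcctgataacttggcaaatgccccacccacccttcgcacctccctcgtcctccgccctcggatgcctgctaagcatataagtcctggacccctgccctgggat
Fcgbp: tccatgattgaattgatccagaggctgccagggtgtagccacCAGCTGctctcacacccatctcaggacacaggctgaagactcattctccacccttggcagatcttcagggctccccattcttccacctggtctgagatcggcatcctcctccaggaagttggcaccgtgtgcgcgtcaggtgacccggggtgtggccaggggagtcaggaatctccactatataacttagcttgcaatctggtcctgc
The motif starts at position -112 in Muc2 and at position -208 in Fcgbp, counted back from the start site. CAGCTG reads the same on both strands and was present in 13% of 32851 such windows of all genes. Of the 10 genes, 7 had an entry in the table (all but Tff3, Clca1 and Zg16), and in the windows of Agr2, Spdef, Muc13, Muc3 and Atoh1 these letters were not found.

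Zg16 and Tff3 were the secreted components furthest from WT. Zg16 (ENSMUSG00000049350) was at 4920 and 3299 CPM in WT and at 1884 and 2336 CPM in p53-/-. Every p53-/- value was below every WT value. The fold between the genotype means, 1.95, was wider than the 1.49-fold between the WT libraries, which in turn were further apart than the nearest libraries of the 2 genotypes. The difference was -0.96 on the log2 scale (SE 0.360, 95% interval -1.86 to -0.06, unadjusted p = 0.0405, adjusted p = 0.255, edgeR). With DESeq2 the adjusted p was 0.00679 and with edgeR's likelihood ratio test 0.0288, so the call depended on the test. Relative to the epithelial markers described below, the log2 fold change of Zg16 was -0.42.

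Tff3 (ENSMUSG00000024029) was at 2090 and 1427 CPM in WT and at 1132 and 1190 CPM in p53-/-. The p53-/- libraries were close together and lay below WT, whose libraries stood further apart. It differed by a log2 fold change of -0.60 (95% interval -1.35 to 0.15, adjusted p = 0.377, edgeR), and it was -0.29 without library 7 and -0.85 without library 8.

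The folding factor Agr2 (ENSMUSG00000020581) was at 493 and 251 CPM in WT and at 405 and 435 CPM in p53-/-. Both p53-/- values lay between the WT values, and WT library 7 was 1.96 times as high as library 8. The log2 fold change of Agr2 was 0.18 (95% interval -0.70 to 1.05, adjusted p = 0.847, edgeR), and its sign turned to -0.24 without library 8.

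The lineage factors were at nearly the same level in both genotypes. Atoh1 (ENSMUSG00000073043) was at 30.8 and 29.0 CPM in WT and at 37.3 and 28.2 CPM in p53-/-. Spdef (ENSMUSG00000024215) was at 31.8 and 29.5 CPM in WT and at 35.3 and 28.8 CPM in p53-/-. For both, library 9 was the highest of the 4 and library 10 the lowest, so the genotypes overlapped. The log2 fold change was 0.13 for Atoh1 (95% interval -0.38 to 0.64, adjusted p = 0.801, edgeR) and 0.06 for Spdef (95% interval -0.41 to 0.54, adjusted p = 0.906, edgeR). These intervals were the narrowest of the 10 genes.

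The transmembrane mucins lay on opposite sides of WT, neither past the threshold. Muc13 (ENSMUSG00000022824) was at 2856 and 2699 CPM in WT and at 4515 and 3690 CPM in p53-/-. Both p53-/- libraries lay above both WT libraries, the log2 fold change being 0.56 (SE 0.319, 95% interval -0.24 to 1.36, adjusted p = 0.431, edgeR). Muc3 (ENSMUSG00000037390) was at 2477 and 2461 CPM in WT and at 2029 and 1305 CPM in p53-/-. Both p53-/- libraries lay below both WT libraries, the log2 fold change being -0.57 (SE 0.331, 95% interval -1.40 to 0.26, adjusted p = 0.447, edgeR). Without library 9 it was -0.93 and without library 10 it was -0.23. Its paralog Muc3a, with which reads may be shared, was at 42.3 and 40.2 CPM in WT and at 40.9 and 28.9 CPM in p53-/-.

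The windows upstream of both transmembrane mucins are shown because the pair differed in direction. They come from RefSeq, build GRCm38.p6, at chr16:33793787-33794036 (plus strand) for Muc13, whose other listed start is not printed, and at chr5:137166047-137166296 (minus strand) for Muc3. The capitals mark CAAAGGTC, part of the direct repeat bound by the enterocyte factor HNF4A, searched on both strands.
Muc13: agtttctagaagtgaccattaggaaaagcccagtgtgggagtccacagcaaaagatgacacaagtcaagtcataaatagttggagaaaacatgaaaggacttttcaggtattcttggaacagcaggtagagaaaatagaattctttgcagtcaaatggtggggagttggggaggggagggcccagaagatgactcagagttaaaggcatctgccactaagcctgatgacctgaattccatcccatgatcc
Muc3: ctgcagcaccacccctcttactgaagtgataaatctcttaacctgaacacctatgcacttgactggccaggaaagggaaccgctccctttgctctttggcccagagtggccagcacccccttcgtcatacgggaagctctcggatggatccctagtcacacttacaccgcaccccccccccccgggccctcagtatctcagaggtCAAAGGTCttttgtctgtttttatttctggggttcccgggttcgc
The motif starts at position -45 in Muc3 and was present in 1.01% of 32851 windows of all genes. These exact letters were not found in either window of Muc13. The window of Muc13 that is not printed holds, on the minus strand, letters that differ from the motif only in the last base. The search therefore does not separate the pair by sites for HNF4A, and binding to these windows was not tested. TTTATNG, a motif of the intestinal factor CDX2 searched on both strands, was in 9.81% of the windows and in none of those printed here. Of these factors, Hnf4a was at 1454 and 1101 CPM in WT and at 1143 and 777 CPM in p53-/-, with genotypes that overlapped. Cdx2 was at 533 and 338 CPM in WT and at 231 and 204 CPM in p53-/-, with a log2 fold change of -1.0 (adjusted p = 0.167, edgeR).

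**Figure D2:**
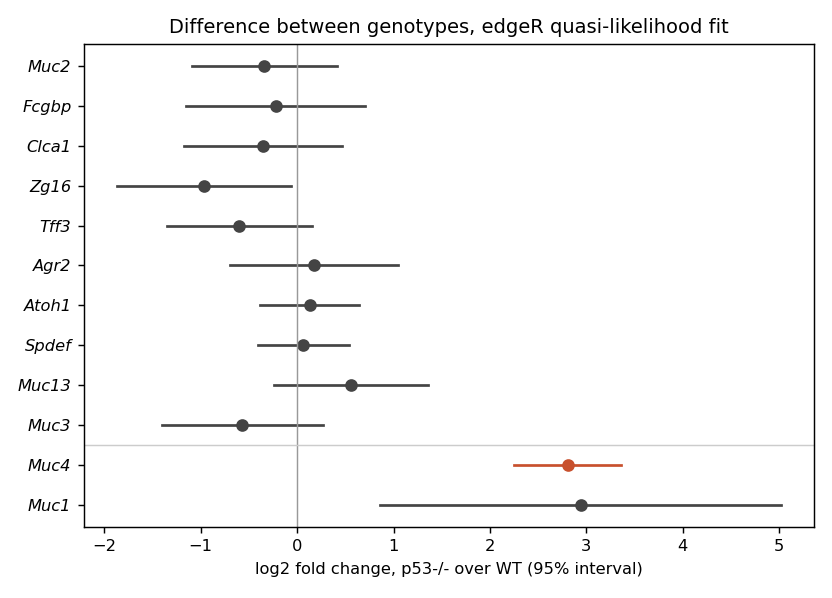
Log2 fold change, p53-/- over WT, with its 95% interval from the edgeR quasi-likelihood fit, for the 10 genes and for Muc4 and Muc1. The interval of Zg16 ends at -0.06 and those of the other 9 genes include 0, while Muc4, in orange, passed the threshold at 2.81.

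Ratios of counts within a library need no scaling between libraries, and 10 of them were computed after the levels had been seen. The log2 ratio of Muc13 to Muc3 was 0.21 and 0.13 in WT and 1.15 and 1.5 in p53-/-, a difference of 1.16. The WT libraries were close together and both p53-/- libraries were above them. The log2 ratio of Clca1 to Muc2 was 1.19 and 0.74 in WT and 0.89 and 1.04 in p53-/-, so that the p53-/- values lay between those of WT. Relative to Muc2, Spdef was higher by 0.42 and Atoh1 by 0.48 on the log2 scale in p53-/-, in both libraries. Zg16, Tff3 and Agr2 relative to Muc2 overlapped between genotypes, with WT ranges of 0.86 to 1.61, -0.35 to 0.37 and -2.86 to -1.72 on the log2 scale. Of the 10 ratios, 6 did not overlap, each with p = 0.333 from a two-sided exact permutation test over libraries, the smallest that 2 against 2 allows (0.556 after Benjamini-Hochberg adjustment).

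**Figure D3:**
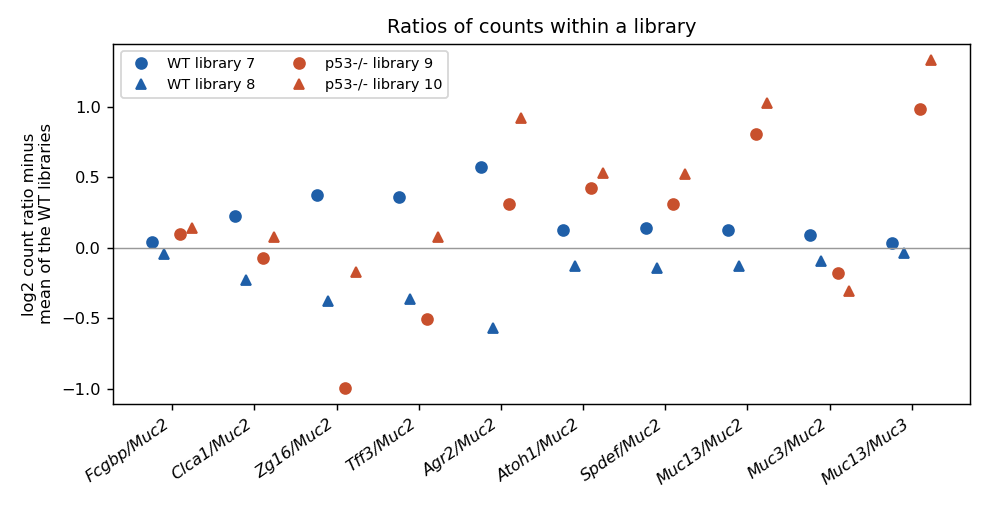
Log2 ratio of counts within each library, minus the mean of the WT libraries, for each gene over Muc2 and for Muc13 over Muc3. The Muc13 to Muc3 ratio of both p53-/- libraries lies above WT, by 1.16 on average, and the Clca1 to Muc2 ratio of the genotypes overlaps.

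To compare the genes with each other, CPM was divided by the length of the exons in the GENCODE M21 annotation. In WT, Tff3 and Zg16 led at 3567 ± 951 and 3269 ± 912 CPM per kilobase (SD, n = 2) and did not differ beyond their spread. They were followed by Muc3 at 1271 CPM per kilobase, whose model in that annotation is only 1943 bases long, by Muc13 at 914 and Clca1 at 891 CPM per kilobase, which overlapped, and by Fcgbp at 550 CPM per kilobase. Agr2 and Muc2 followed at 288 and 241 CPM per kilobase and overlapped. Atoh1 and Spdef came last, at 14.1 and 13.3 CPM per kilobase, with overlapping ranges. In p53-/- the order was the same except that Muc13, at 1350 ± 192 CPM per kilobase (SD, n = 2), stood above Muc3, at 858 ± 264 CPM per kilobase (SD, n = 2), and their libraries did not overlap.

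Libraries of a genotype also differed from each other. For 7 of the 10 genes, the largest fold between libraries of a genotype exceeded the fold between genotypes, the exceptions being Tff3, Zg16 and Muc13. In p53-/-, library 9 exceeded library 10 for 7 genes, by up to 1.56-fold for Muc3. In WT, library 7 exceeded library 8 for 8 genes, by up to 1.96-fold for Agr2, beside the larger smooth muscle and stroma signal of library 8, whose part in this was not tested. The median log2 fold change of the 10 genes was -0.52 without library 9 and -0.0055 without library 10, and no gene passed the threshold with any library left out.

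The general epithelial markers were also lower in the p53-/- libraries. All 6 of Epcam, Cdh1, Krt8, Krt18, Krt19 and Cldn7 lay below WT in both p53-/- libraries, against 24.4% of all tested genes. Their median log2 fold change was -0.47, with summed levels of 18738 and 13147 CPM in WT and 12038 and 10239 CPM in p53-/-. None of the 6 passed the threshold or had an unadjusted p under 0.05, and DESeq2 called 1 of them lower (background 3.50%). With these markers as the measure of library size, the median of all tested genes shifted to 0.47, Muc2 was at 0.11, Clca1 at 0.14 and Fcgbp at 0.23 on the log2 scale, and the signs of these 3 genes turned. Tff3, at -0.07, and Muc3, at -0.11, were then close to 0 (adjusted p = 0.874 and 0.823, edgeR). On that scale Atoh1 was at 0.61, Spdef at 0.54 and Muc13 at 1.04 (adjusted p = 0.0892, edgeR). Of 12 enterocyte markers, 11 had a log2 fold change below 0, with a median of -0.61 and summed levels of 31656 and 30456 CPM in WT and 24690 and 20430 CPM in p53-/-. None passed the threshold, 3 were lower at an unadjusted p under 0.05 (background 7.92%) and DESeq2 called 4 lower (background 3.50%). All 8 proliferation markers had a log2 fold change above 0, with a median of 0.99 and none past the threshold. Of these, 6 had an unadjusted p under 0.05 (background 18.0% in either direction) and DESeq2 called 4 higher (background 5.05%). The 8 stem cell markers did not move together, 4 having a log2 fold change above 0 and 4 below. Their median was -0.04, the range -0.82 to 3.97, and none passed the threshold. The highest of them was Olfm4, named after its values were seen. It was at 47.6 and 16.0 CPM in WT and at 473 and 525 CPM in p53-/- (log2 fold change 3.97, adjusted p = 0.0587, edgeR). Lymphocyte markers were also above WT, with 6 of 6 tested B cell markers and 8 of 8 T cell markers above WT in both p53-/- libraries (background 26.4%). Summed T cell markers were at 8.23 and 15.6 CPM in WT and at 70.4 and 132 CPM in p53-/-. With so little signal in WT over 8 genes, some T cell markers may have been tested mainly through the p53-/- libraries. The count of T cell markers above WT is therefore not read as a result. Summed B cell markers were at only 1.11 and 1.82 CPM in WT, so these genes had enough counts to be tested mostly through the p53-/- libraries. Their direction was thus largely set by the filter, and their count is not a result. The part of any of these cell types in the levels of the 10 genes was not tested.

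**Figure D4:**
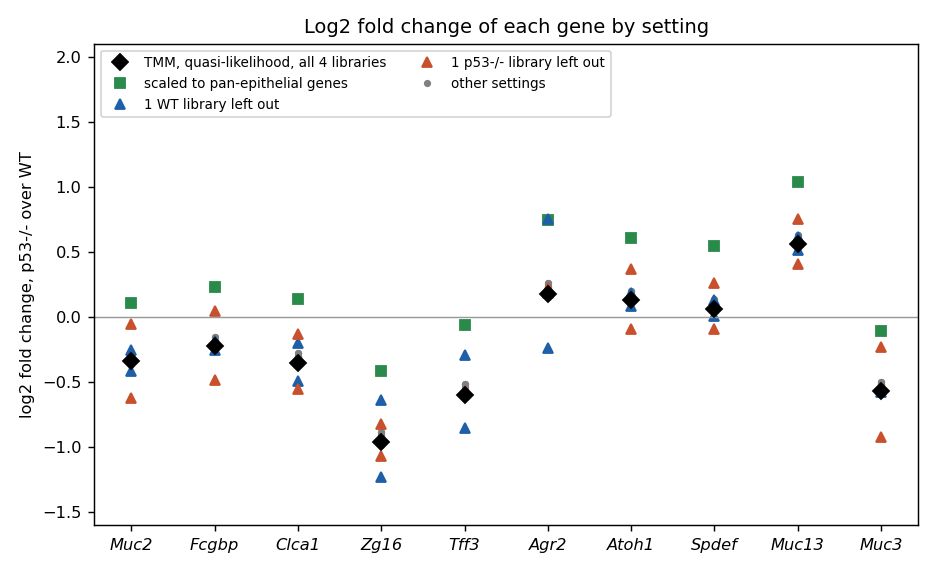
Log2 fold change of each of the 10 genes under each way of processing, with the black diamond for TMM and the quasi-likelihood test on all 4 libraries, triangles for fits with 1 library left out and green squares for scaling to the pan-epithelial genes. Zg16, Tff3 and Muc3 stay below 0 and Muc13 stays above 0 in every setting, while the other 6 genes have values on both sides of 0.

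Among other mucins, Muc4 stood apart. Muc4 (ENSMUSG00000118672), a large transmembrane mucin that can associate with the receptor ERBB2, was at 8.91 and 6.94 CPM in WT and at 60.1 and 51.0 CPM in p53-/-. The genotypes were far apart compared with the libraries of each, and Muc4 rose by a log2 fold change of 2.81 (SE 0.221, 95% interval 2.25 to 3.36, adjusted p = 0.0271, edgeR). It kept its direction in 14 of 14 alternatives and was past the threshold in 12 of them, the exceptions being the fits without library 9 (adjusted p = 0.0573) and without library 10 (adjusted p = 0.189). Muc1, another transmembrane mucin, had 1 and 4 counts in WT and 34 and 21 in p53-/- (log2 fold change 2.94, adjusted p = 0.171, edgeR). Muc20 had 1 count in each WT library and 12 and 13 in p53-/-, at least 3.08-fold higher with 3 counts set for each WT library. Of the 13 genes listed, 11 were in the table and 3 could be tested. Muc1 and Muc20 had enough counts to be tested only through the p53-/- libraries, so their direction was largely set by the filter. Muc15, Muc5ac, Tff1 and Tff2 were at 0 counts in every library, which allows at most 0.195 CPM, counting error only, and Muc5b, Muc6, Muc16 and Muc19 had at most 18 counts.

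Other goblet cell genes did not move as a group. Of 24 genes listed, 23 were in the table and tested, 10 with a log2 fold change above 0 and 13 below, with a median of -0.05, and none passed the threshold in edgeR. Of the 23, 4 had an unadjusted p under 0.05, against 18.0% of all tested genes, and all 4 were lower in p53-/-, against 7.92%. DESeq2 called 2 genes of the list, both lower (background 3.50%). Guca2a, which encodes the peptide guanylin, was at 1072 and 710 CPM in WT and at 401 and 469 CPM in p53-/- (log2 fold change -1.03, adjusted p = 0.167, edgeR). Scin, an actin-severing protein, was at 658 and 339 CPM in WT and at 214 and 211 CPM in p53-/- (log2 fold change -1.23, adjusted p = 0.172, edgeR). Spink4, a secreted peptide of goblet cells, was at 472 and 347 CPM in WT and at 489 and 628 CPM in p53-/-. These 3 did not overlap between genotypes, the first pair lower and Spink4 higher. Of the 23 genes, 4 lay above WT and 6 below WT in both p53-/- libraries, against 26.4% and 24.4% of all tested genes. Retnlb, a goblet cell antimicrobial, was close to the floor, with 1, 12, 23 and 9 counts in libraries 7 to 10, and was named after its values were seen.

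Among the 14 transcription factors of goblet and secretory cells, 8 had a log2 fold change above 0 and 6 below, with a median of 0.10 and none past the threshold. Unadjusted p-values were under 0.05 for 4 (background 18.0%), and DESeq2 called 2 higher and 2 lower (backgrounds 5.05% and 3.50%). Elf3, an epithelial factor, was at 787 and 405 CPM in WT and at 466 and 432 CPM in p53-/-. Gfi1, which acts downstream of ATOH1 in secretory cells and is also expressed in lymphocytes, was at 4.08 and 3.31 CPM in WT and at 11 and 9.0 CPM in p53-/- (log2 fold change 1.44, adjusted p = 0.140, edgeR). Gfi1 and the T cell markers were both higher in p53-/- libraries, and the part of T cells in its level was not tested.

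Of 17 Notch pathway genes, 16 were tested and none passed the threshold, with a median of 0.24, 6 at an unadjusted p under 0.05 (background 18.0%) and 3 called higher by DESeq2 (background 5.05%). The ligand Dll4 was at 71.7 and 35.6 CPM in WT and at 35.7 and 37.0 CPM in p53-/-, and the coactivator Maml1 at 33.2 and 41.4 CPM in WT and 33.4 and 29.8 CPM in p53-/-. The largest differences were those of Mfng, at 0.433 and 1.56 CPM in WT and 2.54 and 8.51 CPM in p53-/-, and Dtx1, at 2.72 and 7.07 CPM in WT and 11.9 and 35.6 CPM in p53-/-. Both genes are also expressed in B cells, and library 10, which held the B cell markers, exceeded library 9 by 3.35-fold for Mfng and 2.98-fold for Dtx1. The part of B cells in these levels was not tested. Hes1, the Notch target that represses Atoh1 (named after its values were seen), was at 31.0 and 30.0 CPM in WT and at 29.1 and 38.4 CPM in p53-/-.

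The enzymes that build mucin-type O-glycans lay on both sides of 0. Of 25 genes listed, 24 of 26 rows (St6galnac2 has a pair of identifiers) were tested, 11 above 0 and 13 below, with a median of -0.06. B3galt5, which extends type 1 chains, rose from 1.55 and 1.49 to 83.0 and 41.3 CPM (log2 fold change 5.35, adjusted p = 0.0271, edgeR). Fut2, the fucosyltransferase of the intestinal surface, was at 5.57 and 13.0 CPM in WT and at 103 and 42.3 CPM in p53-/- (log2 fold change 2.97, adjusted p = 0.105, edgeR). The abundant St3gal4 and B3gnt3 were within 1.5-fold between genotype means.

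Genes of ER folding and early secretion were mostly above 0. Of 27 genes, 26 had a log2 fold change above 0, with a median of 0.48, 21 lay above WT in both p53-/- libraries (background 26.4%), and none passed the threshold, with 14 at an unadjusted p under 0.05 (background 18.0%) and DESeq2 calling 3 higher and 1 lower (backgrounds 5.05% and 3.50%). The chaperones Hspa5 and Calr were at 722 and 597 and at 883 and 687 CPM in WT, and at 1047 and 864 and at 923 and 882 CPM in p53-/-. Pdia5 was at 17.9 and 14.3 CPM in WT and at 38.1 and 34.9 CPM in p53-/- (log2 fold change 1.18, adjusted p = 0.0910, edgeR), and Fkbp11 at 5.38 and 2.53 CPM in WT and 11.4 and 9.55 CPM in p53-/-. Plasma cells and Paneth cells use the same machinery, and most of their markers were also higher. Of 7 plasma cell markers 6 lay above WT (background 26.4%), and Derl3 passed the threshold (background 0.298% higher). Their summed levels were 465 and 497 CPM in WT and 1331 and 1697 CPM in p53-/-. The other plasma cell marker, Sdc1, lay below WT, with a log2 fold change of -0.76. Of 10 Paneth cell markers 8 lay above WT (background 26.4%), and Mptx2 passed the threshold (background 0.298% higher). Summed Paneth cell markers were at 14652 and 10171 CPM in WT and at 16950 and 20053 CPM in p53-/-. The part of either cell type in the ER genes was not tested.

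Among 12 genes of mucus release and processing, 11 were tested and none passed the threshold, with a median of -0.32, 5 at an unadjusted p under 0.05 (background 18.0%) and DESeq2 calling 4 lower and 1 higher (backgrounds 3.50% and 5.05%). The lower group was led by Mep1a, at 2731 and 2457 CPM in WT and at 1080 and 821 CPM in p53-/- (log2 fold change -1.45, adjusted p = 0.109, edgeR). Mep1a encodes the alpha subunit of meprin. Mep1b, which encodes the beta subunit that cleaves MUC2 and detaches the mucus of the SI, was at 1554 and 1426 CPM in WT and at 1450 and 1256 CPM in p53-/-, with overlapping genotypes. Tgm2, a transglutaminase, was at 116 and 119 CPM in WT and at 369 and 231 CPM in p53-/- (log2 fold change 1.35, adjusted p = 0.106, edgeR).

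Cytokines that drive goblet cells were scarcely detected. Il13 had 0 counts in every library, which allows at most 0.195 CPM, and Il4, Il22 and Il25 had at most 15, 4 and 9 counts. Of the 13 genes of this list, 8 were tested and none passed the threshold, with a median of 0.13, 1 at an unadjusted p under 0.05 (background 18.0%) and none called by DESeq2. The receptor gene Il13ra1 was at 142 and 126 CPM in WT and at 163 and 136 CPM in p53-/-. The signal transducer Stat3 was at 192 and 205 CPM in WT and at 226 and 207 CPM in p53-/-.

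**Figure D5:**
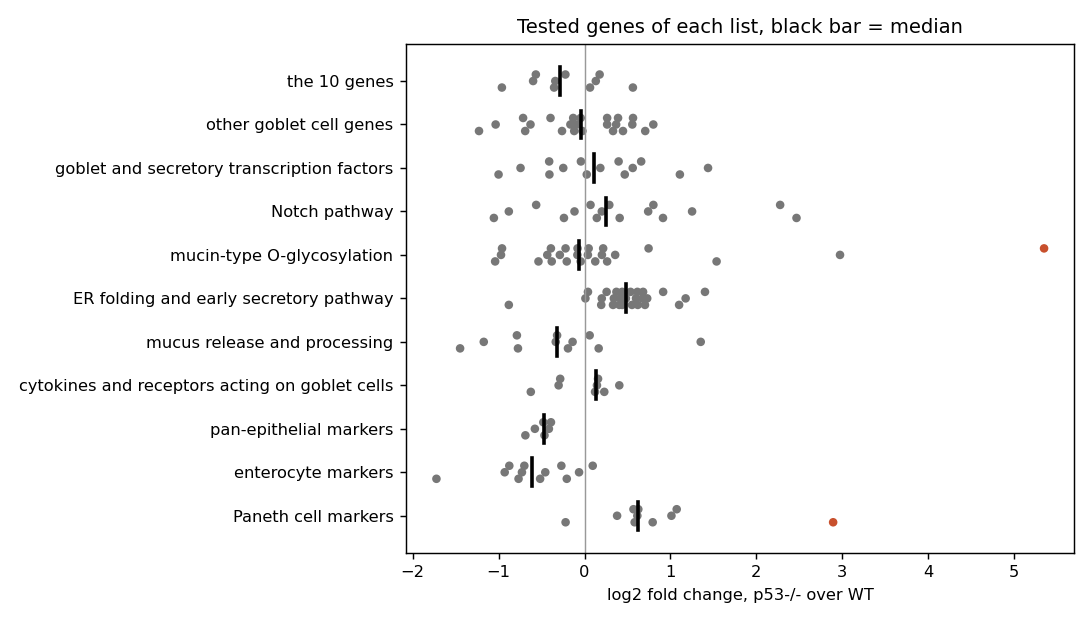
Log2 fold change, p53-/- over WT, of every tested gene in each list, 1 point a gene, with orange for genes past the threshold and a black bar for the median. The 10 genes have a median of -0.28 and other goblet cell genes one of -0.05, while ER folding genes have one of 0.48 and pan-epithelial markers one of -0.47.

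Clca1 has several paralogs, which were listed after the data had been seen. Clca3b was at 184 and 134 CPM in WT and at 553 and 413 CPM in p53-/- (log2 fold change 1.61, adjusted p = 0.0836, edgeR), and Clca3a2 at 5.32 and 4.41 CPM in WT and at 21.7 and 20.7 CPM in p53-/- (log2 fold change 2.12, adjusted p = 0.0541, edgeR). Neither passed the threshold, and DESeq2 called both higher (background 5.05%). Clca4b was at 3484 and 2339 CPM in WT and at 3202 and 2531 CPM in p53-/-, with overlapping genotypes. Clca4a was at 3002 and 1411 CPM in WT and at 1497 and 874 CPM in p53-/-, also overlapping (log2 fold change -0.90, adjusted p = 0.405, edgeR). Of the 7 genes of the family, Clca1 included, 3 had a log2 fold change above 0 and 4 below, with a median of -0.02. Reads could have been split among these paralogs.

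Over the 4 libraries, the genes whose levels followed Muc2 most closely were Kdm5b, Golim4, App, Exoc6b and Kifc3, by the distance between centred log2 CPM values among 5494 genes averaging a log2 CPM of 5 or more. The distances were 0.05 to 0.10 on the log2 scale. Of the other 9 goblet cell and mucin genes, Fcgbp was the nearest to Muc2, at 0.14 with 24 genes nearer. Muc3 and Clca1 followed at 0.29 and 0.34, with 359 and 594 genes nearer. Spdef, Atoh1, Tff3, Muc13 and Zg16 had 1842, 2119, 3555, 4687 and 4750 genes nearer. Agr2 was the furthest, at 1.10, with 4956 of the 5494 genes nearer.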

How the data were processed

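Poly(A) RNA of 2 WT and 2 p53-/- SI samples was sequenced. The deposited values are unnormalized counts of reads for each gene. Per the submitters' processing notes the tools were fastp, HISAT2 2.0.5, featureCounts 1.5.0-p3 and DESeq2 1.20.0. The genome build and the strand setting are not given in the sources used here. Columns carry the genotype but no replicate number of the labels. The spread between libraries of the same genotype exceeded sampling noise (chi-square per degree of freedom 48.0 for WT and 69.5 for p53-/-), and p-values measure the spread between these libraries only.

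Genes with low counts were removed by filterByExpr, libraries scaled by TMM and genotypes compared, two-sided, with the quasi-likelihood test in edgeR 4.0.16 and R 4.3.3, after the tests had been tested on simulated data. Intervals use the 95% level. Alternatives were other scalings, DESeq2 1.42.0, the likelihood ratio test, other filters and thresholds, and each library left out. Lengths came from GENCODE M21 (91.8% of identifiers found) and sequences from RefSeq. All 10 chosen genes are named. In each other list, the genes set to be named were those past the threshold, the 2 most abundant and the 2 with the largest difference at an average log2 CPM of at least 1. Not all of these are printed, and some genes outside this rule are, such as Fabp1 and Lct. The genes and lists were chosen with earlier results of these data known.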

Additional observations from a re-analysis of the deposited data

How the results depend on the processing

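Over 14 alternatives, Zg16, Tff3, Muc3 and Muc13 kept their direction, though Tff3 (-0.07) and Muc3 (-0.11) came close to 0 with pan-epithelial genes as library size. Zg16 passed the threshold with DESeq2 (log2 fold change -0.98) and the likelihood ratio test (-0.96), so that 1 gene of the 10 was called lower in each of these against 0. With that scaling, Muc2 turned to 0.11, Clca1 to 0.14 and Fcgbp to 0.23, and the median of the 10 genes moved to 0.18. By construction this scaling sets the epithelial genes level. With each library left out in turn, Muc2 ranged from -0.62 to -0.06, Tff3 from -0.85 to -0.29, Clca1 from -0.55 to -0.13, Muc3 from -0.93 to -0.23, Fcgbp from -0.48 to 0.046, Agr2 from -0.24 to 0.75, Spdef from -0.10 to 0.26, Atoh1 from -0.090 to 0.37 and the median of the 10 from -0.52 to -0.0055.

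The number of all tested genes past the threshold, 48 higher and 31 lower, was 29 and 20 with upper-quartile factors, 26 and 20 with total counts only, 164 and 18 with pan-epithelial scaling, 813 and 563 with DESeq2, 833 and 462 with the likelihood ratio test, 1433 and 761 without a filter, 24 and 18 with at least 10 counts in every library, 238 and 134 at an adjusted p under 0.1 and 4 and 2 under 0.01. With a library left out it ranged from 0 to 680 higher and from 0 to 344 lower. Except at other thresholds, where it follows from the setting, the cause was not tested. Where a genotype was left with 1 library, that library was assumed to vary like the other genotype. No paired analysis was possible because the columns carry no replicate number of the labels. The intervals rest on 2 libraries a genotype.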
